A study of Mus musculus with 30 samples.

Results

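The mitochondrial respiratory chain is assembled from the products of 2 genomes, and 37 of its genes were followed while mouse fibroblasts were reprogrammed to induced pluripotent stem cells (iPSCs). These were the 13 protein-coding genes of the mitochondrial genome and 24 nuclear genes for subunits of complexes I to IV and for cytochrome c. They were chosen by name, although with earlier results of these data known. Each of the 37 matched exactly 1 of the 55401 gene identifiers in each of 3 deposited expression tables. All 37 passed the filter on low values, under which 2 or more libraries of a table reach 1 FPKM, in every table. Levels are given in FPKM: fragments per transcript length and sequencing depth, a scale on which different genes can be compared per unit length.

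Each of 15 groups had 2 libraries. In the 4-factor arm, mouse embryonic fibroblasts (MEFs) of genotype 129XOG2 were infected with lentivirus carrying Oct4, Sox2, Klf4 and c-Myc and kept with 2 µg/ml doxycycline, and were collected on days 0, 2, 4 and 7 and as iPSCs. In the chemical arm, MEFs of the CF1 stock were kept in a medium of small molecules and collected on days 0, 4, 8 and 12 and as iPSCs. In the removal experiment, chemically treated MEFs of genotype 129XOG2 lost 1 small molecule from day 8 to day 12 and were collected on day 12. Its groups were labelled CT, -CHIR, -PD, -VC and -WS. CT was taken as the group from which nothing was removed, and VC and WS are left unexpanded, as in the labels. The day 0 cells of both arms were untreated MEFs in serum. iPSCs of both arms were grown on feeder cells in a medium with leukaemia inhibitory factor, CHIR99021 and PD0325901, so an iPSC library can hold some feeder RNA. The labels name no separate cultures for the libraries of a group, so the p-values reflect only how far these samples differ, possibly for technical reasons alone.

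As background, complexes I and II pass electrons to ubiquinone, complex III passes them to cytochrome c, and complex IV passes them to oxygen. Complexes I, III and IV pump protons, and ATP synthase (complex V) uses the proton gradient to make ATP. Complex II is wholly nuclear-encoded, whereas complexes I, III, IV and V each join subunits of both genomes. The mitochondrial genes are transcribed together as long RNAs that are cut at the tRNAs between them, while each nuclear gene has its own promoter. Pluripotent stem cells are known for relying more on glycolysis than fibroblasts do, although their mitochondria respire.

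In the GENCODE M21 annotation of GRCm38 the mitochondrial genome holds 37 genes, of which 13 code for protein, 22 are tRNAs and 2 are rRNAs. Only mt-Nd6 among the coding genes lies on the minus strand (M:13552-14070). Neighbouring genes overlap by 43 bases between mt-Atp8 and mt-Atp6 (M:7927-7969) and by 7 bases between mt-Nd4l and mt-Nd4 (M:10167-10173). The 3' ends of mt-Nd5 and mt-Nd6 overlap by 14 bases on opposite strands (M:13552-13565). Reads in these stretches can belong to either gene, and no source used here says whether the authors counted with strand. The whole coding sequence of mt-Atp8 (M:7766-7969, plus strand) and the last 60 bases of mt-Nd5 (M:13506-13565, plus strand) are shown because the values of both pairs depend on how such reads were assigned, with the bases shared with the neighbour in capitals.
mt-Atp8: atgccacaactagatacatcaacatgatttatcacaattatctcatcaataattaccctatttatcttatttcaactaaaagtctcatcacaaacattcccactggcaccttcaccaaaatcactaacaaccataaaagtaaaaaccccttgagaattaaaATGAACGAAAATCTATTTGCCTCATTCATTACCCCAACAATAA
mt-Nd5: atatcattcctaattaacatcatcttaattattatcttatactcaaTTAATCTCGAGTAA
The mt-Atp8 stretch begins with the start codon of mt-Atp6. The ratio of the FPKM of mt-Atp8 to that of mt-Atp6 ranged from 0.301 to 0.602 over the 30 libraries, and that of mt-Nd4l to mt-Nd4 from 0.474 to 0.702, so the genes of each pair were not measured as one.

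The 24 nuclear members lie on 13 chromosomes. RefSeq promoter windows of GRCm38.p6, from 250 bases before to 50 bases after the start of transcription, were at hand for 18 of them. Each was searched on both strands for 4 motifs of factors known as background to act on respiratory chain genes. The NRF1 motif GCATGCGC was in 4 of the 18 windows (22.2%: Cycs, Uqcrc1, Sdhb and Cox6a1) and in 2.71% of all 32851 windows. The ETS motif CCGGAAG, bound by GABP among others, was in 5 of 18 (27.8%: Ndufs3, Sdhd, Sdhb, Cox6a1 and Cox6b1) against 8.86% of all windows. The estrogen-related receptor motif TCAAGGTCA was in the Sdhd window alone (0.423% of all windows) and the YY1 motif AAGATGGCG in the Ndufa9 window alone (1.40% of all windows). No motif contains another, but in Cox6a1 and Uqcrc1 the NRF1 match is read on both strands from overlapping bases. The 4 windows with an NRF1 match are shown with every motif match in capitals, which is the NRF1 match in all 4 and also the ETS match in Sdhb (CCGGAAG) and in Cox6a1 (CTTCCGG, the same motif on the other strand). They were chosen because their genes moved in different directions in the data below: Cycs, Uqcrc1 and Sdhb against Cox6a1. The fall of Cox6a1 was close to the limit of the test used below. They are Cycs (chr6:50566520-50566819, minus strand), Uqcrc1 (chr9:108936398-108936697, plus strand), Sdhb (chr4:140961021-140961320, plus strand) and Cox6a1 (chr5:115348909-115349208, minus strand).
Cycs: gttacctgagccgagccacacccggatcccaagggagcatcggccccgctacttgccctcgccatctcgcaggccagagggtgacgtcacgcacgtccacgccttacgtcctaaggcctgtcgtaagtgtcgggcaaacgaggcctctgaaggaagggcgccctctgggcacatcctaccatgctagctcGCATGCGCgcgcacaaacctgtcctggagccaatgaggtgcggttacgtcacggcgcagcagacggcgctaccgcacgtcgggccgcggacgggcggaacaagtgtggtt
Uqcrc1: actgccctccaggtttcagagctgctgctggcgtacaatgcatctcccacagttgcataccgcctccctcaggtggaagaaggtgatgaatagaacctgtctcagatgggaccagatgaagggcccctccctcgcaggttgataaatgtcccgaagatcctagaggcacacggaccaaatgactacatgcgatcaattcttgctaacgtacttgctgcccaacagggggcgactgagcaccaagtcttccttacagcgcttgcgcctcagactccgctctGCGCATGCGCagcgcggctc
Sdhb: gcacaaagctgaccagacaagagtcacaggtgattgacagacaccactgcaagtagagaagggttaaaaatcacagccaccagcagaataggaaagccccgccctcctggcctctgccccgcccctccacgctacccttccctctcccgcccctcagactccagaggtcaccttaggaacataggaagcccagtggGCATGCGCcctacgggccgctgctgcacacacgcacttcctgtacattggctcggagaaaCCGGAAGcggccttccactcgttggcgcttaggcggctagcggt
Cox6a1: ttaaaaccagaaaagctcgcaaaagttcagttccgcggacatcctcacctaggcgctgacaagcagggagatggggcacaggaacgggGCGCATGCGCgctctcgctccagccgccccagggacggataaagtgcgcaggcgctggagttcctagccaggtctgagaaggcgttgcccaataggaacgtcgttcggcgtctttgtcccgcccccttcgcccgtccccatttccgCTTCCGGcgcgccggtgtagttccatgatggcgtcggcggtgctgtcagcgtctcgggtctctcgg
A match describes these letters only and is neither a bound site nor a cause of a change.

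Sums of FPKM ranged from 328158 to 469208 per library, and log2 values of replicates correlated across genes at 0.972 to 0.996. Low values pointed to a depth of about 34500000 to 40100000 units per library, but only 10.2% to 20.6% of them lay on whole steps, so no read counts were recovered. Fibroblast markers summed to 4243 to 16318 FPKM in the MEFs and intermediates of both arms and to 187 to 355 in the iPSCs, and naive pluripotency markers summed to 3718 to 4674 in the iPSCs. Macrophage markers summed to 287 and 268 FPKM in the day 0 CF1 libraries against at most 22.1 in the other CF1 libraries, so the CF1 starting cells had more macrophage transcripts than later samples. Their part in the changes from day 0 was not tested. In bulk RNA, fewer cells of a type and less RNA per cell cannot be told apart. Replicate 2 of 3 groups stood apart from replicate 1 in the mitochondrial members: CT, day 4 of the 4-factor arm and the 4-factor iPSCs. Some of the results that rest on these are also given without them.

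Transcripts of the mitochondrial genome outweighed those of the nuclear members in every library. The 13 mitochondrial members held 2.03% to 13.7% of all FPKM (median 8.01%), and the 24 nuclear members 0.318% to 0.634%. The ratio of the 2 totals was lowest in CT replicate 2 (3.67) and highest in day 12 replicate 2 of the CF1 arm (43.2), with a median of 16.4. Among mitochondrial members, mt-Co1, the catalytic core of complex IV, had the highest FPKM in 30 of 30 libraries and held 19.2% to 30.6% of the mitochondrial total. The lowest was mt-Nd3, a small membrane subunit of complex I, in 29 of 30. Among nuclear members, the mobile electron carrier Cycs was lowest in 24 libraries, while the highest was Cox4i1 in 18, Cox6a1 in 10 and Cox5a in 2. All of the last 3 are subunits of complex IV.

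The share of FPKM in the mitochondrial members was higher in the intermediates of both arms than in their MEFs. It was 4.77% and 5.58% in the day 0 CF1 libraries, 13.2% and 12.8% on day 4, 10.7% and 11.5% on day 8, 12.05% and 13.7% on day 12, and 12.5% and 11.8% in the iPSCs. No later CF1 library overlapped day 0. In the 4-factor arm it was 5.08% and 5.35% on day 0, 9.02% and 9.14% on day 2, 11.6% and 7.90% on day 4, 13.3% and 11.3% on day 7, and 9.03% and 5.204% in the iPSCs. Here the second iPSC library lay between the day 0 libraries. These shares are descriptions over 2 libraries a group, where an exact permutation test could not go below p = 0.333.

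The balance of the genomes, defined as the mean log2(FPKM + 1) of the 13 mitochondrial members minus that of the 24 nuclear members, separated intermediates from both end points of the CF1 arm. It was 4.21 and 4.58 on day 0, 6.11 and 6.39 on day 12, and 5.49 and 5.33 in the iPSCs, without overlap. Day 12 exceeded day 0 by 1.85 ± 0.33 (combined SD, n = 2 a group), and the iPSCs were 1.01 ± 0.29 above day 0 and differed from day 12 by -0.84 ± 0.23. Each value after ± in this paragraph is this combined SD, the square root of the summed variances of the 2 groups. In the 4-factor arm it was 4.47 and 4.49 on day 0, 6.13 and 5.78 on day 7, and 4.85 and 3.73 in the iPSCs. Day 7 exceeded day 0 by 1.47 ± 0.25, while the 4-factor iPSC libraries lay on either side of day 0, with a difference of -0.19 ± 0.79. The balance therefore stood higher in intermediates than in MEFs in both arms, and in the iPSCs it stayed above the MEFs in the CF1 arm alone. Whether the arms differ in this was not tested on the balance; single members were tested and are given below.

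**Figure D1:**
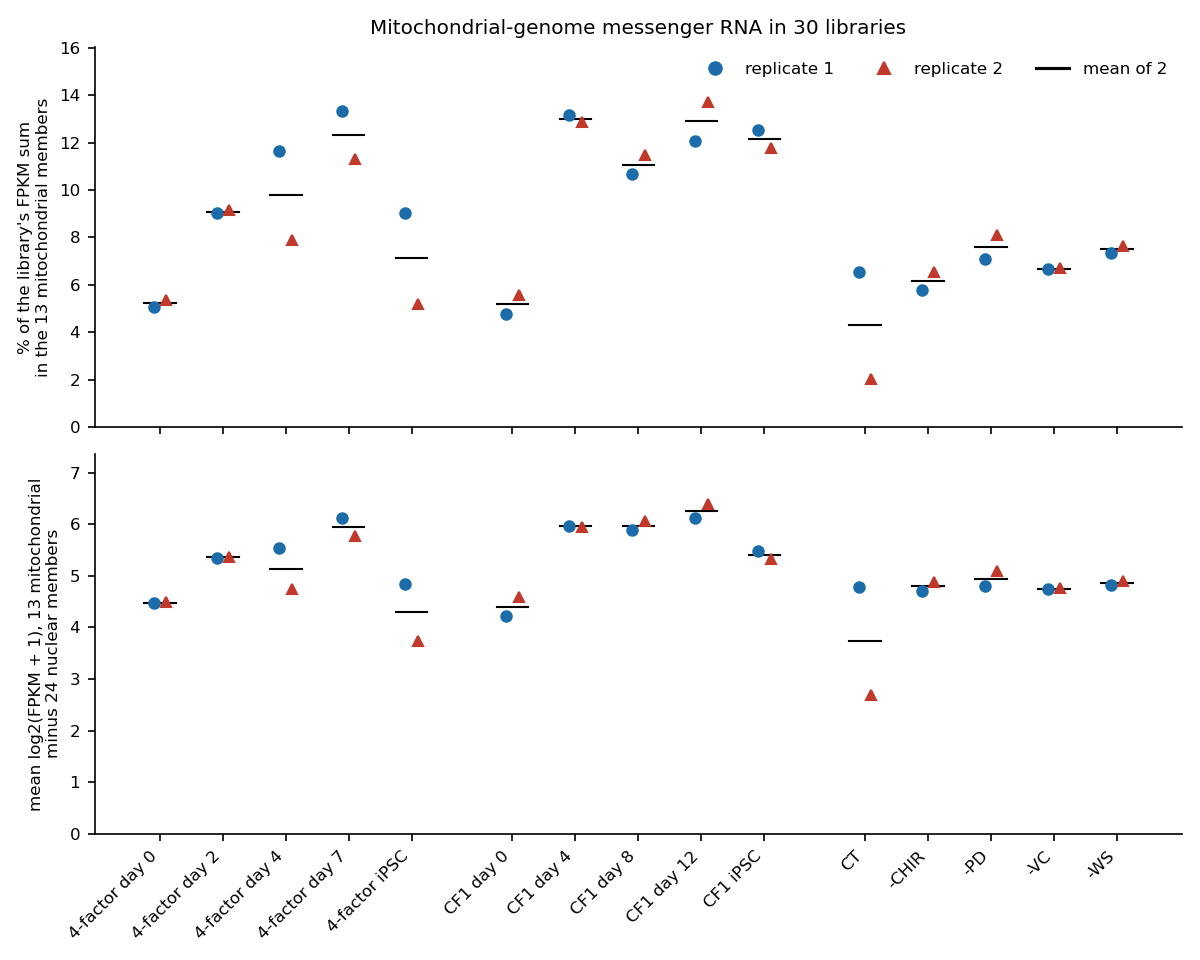
Share of each library's FPKM sum in the 13 mitochondrial members (upper panel, percent) and genome balance (lower panel, mean log2(FPKM + 1) of 13 mitochondrial minus 24 nuclear members) in the 30 libraries, with circles for replicate 1, triangles for replicate 2 and lines for group means. Day 12 replicate 2 of the CF1 arm lies highest at 6.39 and CT replicate 2 lowest at 2.70, while the other 9 removal libraries lie between 4.70 and 5.09.

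Every mitochondrial gene rose in the CF1 arm, on every day and in the iPSCs. Relative to day 0, all 13 members passed the test (adjusted p under 0.05, limma) and were higher on days 4, 8 and 12 and in the iPSCs. Their median changes were 1.57, 1.29, 1.58 and 1.25 on the log2(FPKM + 1) scale, on which all changes below are given with the standard error. Of all tested genes, 61.3%, 68%, 67.8% and 78.7% passed in these 4 comparisons, and 32.8%, 32.4%, 29.2% and 41.9% passed as higher and 28.5%, 35.6%, 38.6% and 36.8% as lower, with median changes of 0.04, 0.00, -0.06 and 0.05. The 13 genes were thus shifted well beyond the middle of the transcriptome, in which most genes also passed.

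The complex I subunit mt-Nd2 had the largest mitochondrial change on day 12. Its FPKM was 907 and 1054 on day 0, 3633 and 3537 on day 4, 2706 and 2939 on day 8, 3023 and 3512 on day 12 and 2844 and 2593 in the iPSCs. Both day 0 libraries were below all 8 later ones. The day 12 change was 1.74 ± 0.11 (adjusted p = 1.2e-06). Next on day 12 came mt-Nd6, the sole member on the minus strand, at 1050.5 and 1170.5 on day 0 and 3304 and 3898 on day 12, a change of 1.69 ± 0.17 (adjusted p = 2.0e-05). Close to it were the complex I subunits mt-Nd5 at 1.68 ± 0.12, mt-Nd3 at 1.65 ± 0.14 and mt-Nd4 at 1.64 ± 0.11. The smallest day 12 change was that of mt-Nd1, also a complex I subunit, at 1.07 ± 0.10 (adjusted p = 1.2e-05). The values of mt-Nd6 and of the plus-strand members therefore rose together. If strand was not used, reads from either strand count for mt-Nd6 along its whole length. Its rise is then not known to be one of minus-strand transcripts.

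In CF1 iPSCs the order of the mitochondrial genes was another. The largest changes from day 0 were those of mt-Atp8, a small subunit of ATP synthase, mt-Co1, mt-Nd3, mt-Co2 and mt-Atp6. FPKM of mt-Atp8 was 596 and 812 on day 0, 1799 and 2413 on day 12 and 3628 and 2825 in the iPSCs, and rose from day 0 by 2.2002 ± 0.21 (adjusted p = 1.1e-05). FPKM of mt-Co1 was 4081 and 4428, 10653 and 11754 and 15145 and 16429 in the same groups, and rose by 1.89 ± 0.11 (adjusted p = 4.1e-07). Both were highest in the iPSCs, with no overlap with day 12. Between day 12 and the iPSCs, mt-Atp8 (0.62 ± 0.21), mt-Co1 (0.50 ± 0.11) and mt-Co2 (0.46 ± 0.12) rose further, whereas mt-Nd6 (-0.49 ± 0.17), mt-Nd5 (-0.47 ± 0.12), mt-Nd4 (-0.40 ± 0.11), mt-Nd4l (-0.38 ± 0.13) and mt-Cytb, the mitochondrial subunit of complex III (-0.38 ± 0.10), fell. That split, 3 higher and 5 lower of 13 with 83.2% of all tested genes passing (46% higher, 37.2% lower), was 1 higher and 6 lower when values were rescaled to TPM or to the nuclear genes alone. Without day 12 replicate 2, 5 members passed. Before rescaling, the 3 genes that increased belong to complex IV and ATP synthase, and the 5 that decreased to complexes I and III. The other mitochondrial members of complexes I, IV and V did not pass.

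**Figure D2:**
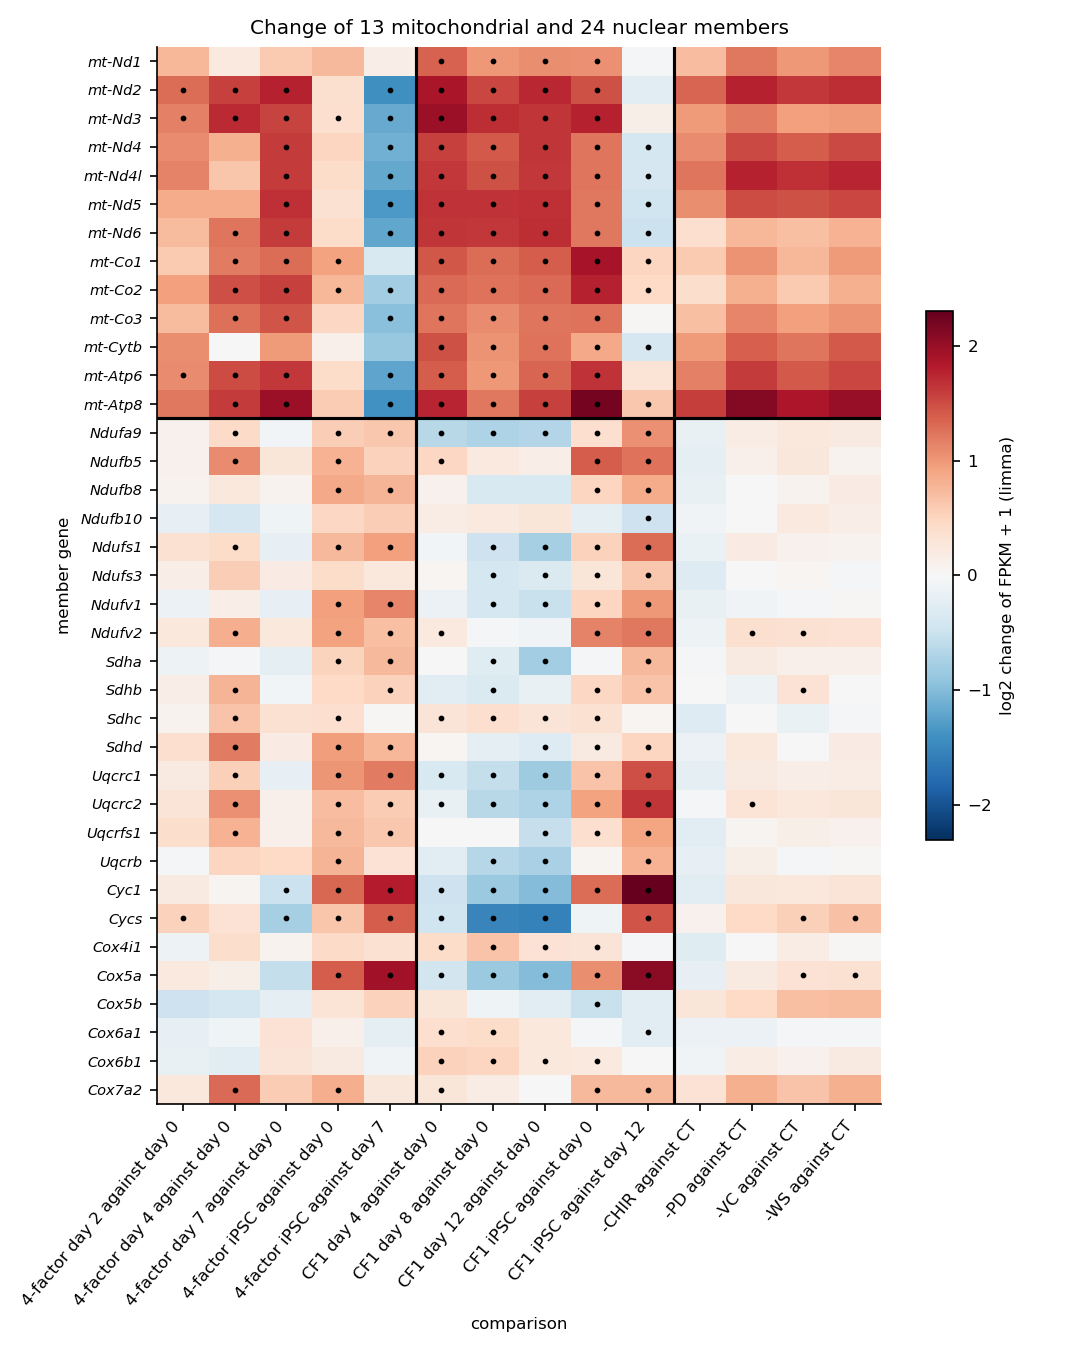
Log2 change (colour, log2(FPKM + 1) scale, limma) of the 37 members in 14 comparisons within a table, with mitochondrial members above nuclear members grouped by complex, and dots on changes with adjusted p under 0.05. All 13 mitochondrial members carry a dot in the 4 CF1 comparisons with day 0, and none does in the 4 removal comparisons.

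In late CF1 intermediates most nuclear members that passed were lower than in the MEFs, while in CF1 iPSCs most were higher. Relative to day 0, 7 of 24 rose and 6 fell on day 4, 4 rose and 12 fell on day 8, and 3 rose and 13 fell on day 12, with medians of 0.03, -0.30 and -0.35. On day 4, 13 of 24 passed, against 61.3% of all tested genes (32.8% higher, 28.5% lower). The 16 of 24 passing on day 8 is near the 68% of all tested genes (32.4% higher, 35.6% lower). On day 12, 16 of 24 passing is near the 67.8% of all tested genes, and 13 of 24 lower is a larger share than the 38.6% of all tested genes that were lower. Under TPM the day 4 split was 3 higher and 10 lower, and without day 0 replicate 2 only 8 members passed on day 4. In the iPSCs relative to day 0, 18 rose and 1 fell (median 0.38). This split was 8 and 5 under TPM and 13 and 4 under scaling on the nuclear genes. The 19 of 24 passing is near the 78.7% of all tested genes, with 41.9% of all tested genes higher and 36.8% lower. Relative to day 12, 18 rose and 2 fell (median 0.82), or 18 and 5 under TPM and under scaling on the nuclear genes. Here 20 of 24 passing is near the 83.2% of all tested genes, with 46% of all tested genes higher and 37.2% lower. The comparisons of day 12 with day 0 and with the iPSCs share the day 12 libraries.

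Complex III gave the most uniform pattern. All 5 of its nuclear members fell by day 12 (median -0.74) and all 5 rose from day 12 to the iPSCs (median 1.48). Of all tested genes 38.6% were lower at the first step and 46% higher at the second. Cyc1, cytochrome c1, had an FPKM of 77.2 and 74.1 on day 0, 53.8 and 53.7 on day 4, 40.7 and 41.6 on day 8, 39.8 and 35.4 on day 12 and 185 and 188 in the iPSCs. Each intermediate day lay below day 0 and the iPSCs lay above all others. The change was -0.99 ± 0.06 (adjusted p = 1.1e-06) from day 0 to day 12 and 2.28 ± 0.06 (adjusted p = 2.1e-09) from day 12 to the iPSCs. The core proteins Uqcrc1 and Uqcrc2 went the same way, Uqcrc1 from 132 and 123 on day 0 to 72.5 and 72.0 on day 12 and 213.5 and 192 in the iPSCs (-0.81 ± 0.07 and then 1.48 ± 0.07). Uqcrc2 went from 58.4 and 61.0 to 36.0 and 35.8 and 118.5 and 111 (-0.72 ± 0.06 and then 1.65 ± 0.06). For both genes day 12 and the iPSCs overlapped neither day 0 nor each other. The Rieske iron-sulfur protein Uqcrfs1 changed by -0.52 ± 0.08 and 0.90 ± 0.08, and the small subunit Uqcrb by -0.74 ± 0.14 and 0.80 ± 0.14. The mitochondrial subunit of the same complex, mt-Cytb, moved the other way at both steps, by 1.26 ± 0.10 and -0.38 ± 0.10.

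Cytochrome c had the largest nuclear decrease. Cycs was at 28.8 and 25.5 FPKM on day 0, 19.4 and 19.3 on day 4, 8.83 and 8.72 on day 8, 9.09 and 8.15 on day 12 and 23.1 and 27.3 in the iPSCs. The day 8 and day 12 libraries were the lowest, and the iPSC libraries overlapped day 0. Cycs fell by 1.55 ± 0.09 (adjusted p = 9.4e-07) to day 12 and rose by 1.44 ± 0.09 (adjusted p = 6.4e-07) from there to the iPSCs, and the difference between iPSCs and day 0 was -0.10 ± 0.09 (adjusted p = 0.33). Mouse Cycs has many processed pseudogenes, among which reads can be divided.

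Complex IV was divided among its nuclear members. Cox5a, a structural subunit, went from 129.8 and 111 FPKM on day 0 to 61.2 and 57.6 on day 12 and 278 and 229 in the iPSCs, with both later groups outside the day 0 range. It fell by 1.01 ± 0.10 (adjusted p = 2.2e-05) and then rose by 2.07 ± 0.10 (adjusted p = 8.1e-08). Cox4i1, the common isoform of the largest nuclear subunit, went from 192 and 173 on day 0 to 303 and 276 on day 8, 241 and 220.2 on day 12 and 220.5 and 228 in the iPSCs, highest on day 8. It rose by 0.66 ± 0.08 (adjusted p = 6.8e-05) to day 8 and 0.34 ± 0.08 (adjusted p = 0.0042) to day 12, and changed by -0.04 ± 0.08 from there to the iPSCs, which did not pass. Cox6b1, a subunit on the side of the intermembrane space, also rose, by 0.53 to day 4, 0.50 to day 8 and 0.23 to day 12. The subunit Cox6a1 rose by 0.38 to day 4 and 0.42 to day 8, and then fell by 0.27 from day 12 to the iPSCs (adjusted p = 0.050, just inside the threshold). The ratio of Cox5a to Cox4i1 FPKM ranged from 0.190 to 1.26 over the 30 libraries, so transcripts for subunits of the same complex were far from constant in proportion. Without rescaling, Cox5b was the only nuclear member to fall from day 0 to the CF1 iPSCs, by 0.52 ± 0.15 (adjusted p = 0.011), from 36.4 and 28.3 to 21.2 and 23.0. Under TPM 5 nuclear members fell in this comparison, and under scaling on the nuclear genes 4.

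Of the 8 nuclear members of complex I, 4 fell by day 12 and none rose (median -0.35), a smaller passing share than the 67.8% of all tested genes, of which 38.6% were lower. From day 12 to the iPSCs 7 rose and 1 fell, where 83.2% of all tested genes passed, 46% as higher and 37.2% as lower. Ndufs1, the iron-sulfur subunit of the electron input arm, went from 40.5 and 37.5 FPKM on day 0 to 23.5 and 21.9 on day 12 and 57.8 and 56.4 in the iPSCs, without overlap. It changed by -0.76 ± 0.06 and then 1.29 ± 0.06. Ndufa9 (-0.67 ± 0.06), the NADH-binding Ndufv1 (-0.51 ± 0.10) and Ndufs3 (-0.34 ± 0.08) also fell by day 12. Ndufb5, a subunit of the membrane arm, had the largest nuclear change from day 0 to the CF1 iPSCs, from 32.3 and 33.0 to 96.1 and 79.8, a rise of 1.40 ± 0.09 (adjusted p = 6.6e-07). Ndufv2 rose by 1.14 ± 0.08 (adjusted p = 1.5e-06) in the same comparison. Ndufb10 was the member that fell from day 12 to the iPSCs, by 0.48 ± 0.13 (adjusted p = 0.0086).

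Complex II, which has no mitochondrial gene, was split as well. By day 12 its catalytic subunit Sdha fell by 0.80 ± 0.07 (adjusted p = 9.1e-06) and its membrane anchor Sdhd by 0.29 ± 0.08 (adjusted p = 0.010), while the other anchor Sdhc rose by 0.30 ± 0.08 (adjusted p = 0.0063). Sdha was at 58.1 and 55.2 FPKM on day 0, 46.7 and 46.3 on day 8, 32.3 and 32.1 on day 12 and 51.0 and 59.0 in the iPSCs, lowest on day 12 and overlapping between iPSCs and day 0. From day 12 to the iPSCs, Sdha, Sdhb and Sdhd rose.

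**Figure D3:**
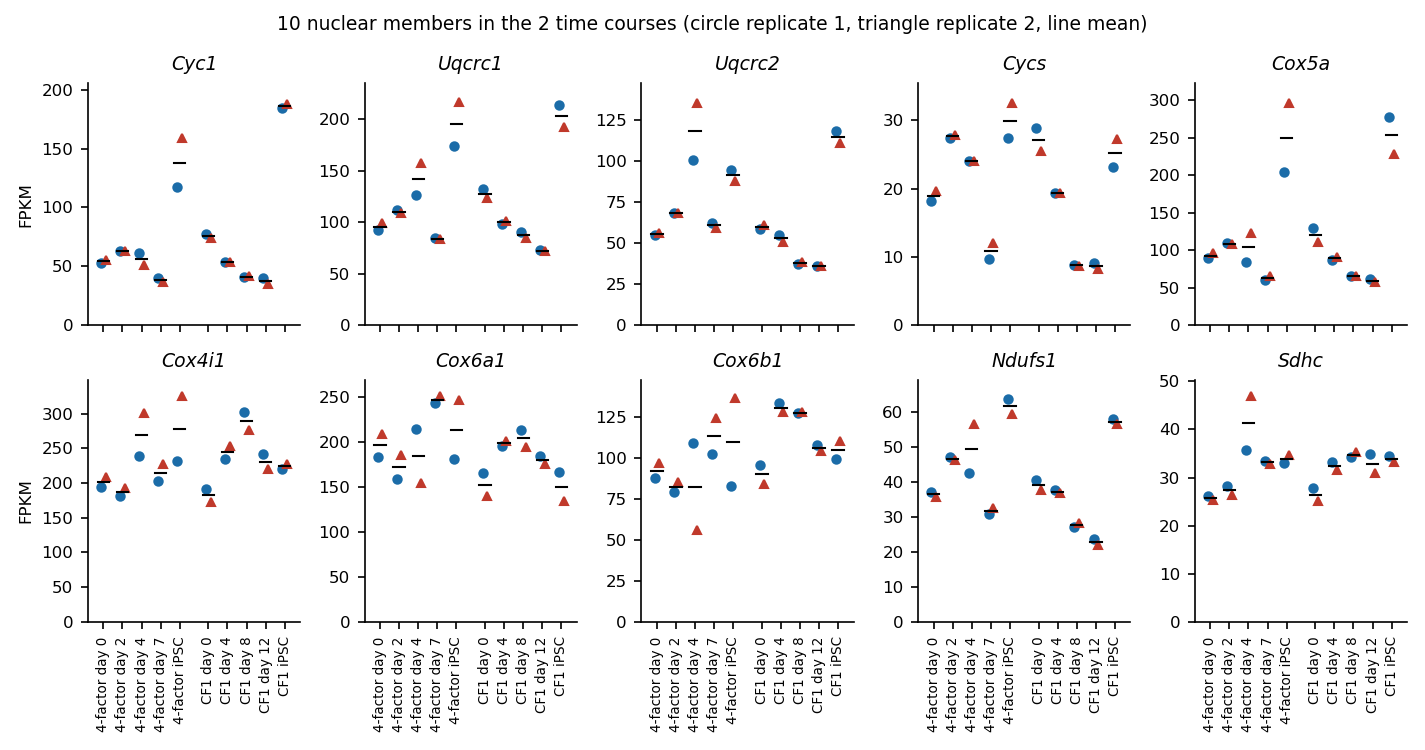
FPKM of 10 nuclear members in the 10 time-course groups of the 4-factor and CF1 arms, with circles for replicate 1, triangles for replicate 2 and lines for group means. Cyc1, Uqcrc1, Uqcrc2, Cox5a and Ndufs1 dip in late CF1 intermediates and, within that arm, are highest in the iPSCs, while Cox4i1 within that arm is highest on day 8 at 303 and 276 FPKM.

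In the 4-factor arm the mitochondrial genome rose over the intermediate days and fell back towards day 0 in the iPSCs. Relative to day 0, 3 of 13 members rose on day 2, 8 on day 4 and 11 on day 7, and none fell, with medians of 1.06, 1.24 and 1.60. Of all tested genes 13.4%, 47% and 34.5% passed, with 7.74%, 26% and 18.4% as higher and 5.62%, 21.1% and 16.2% as lower. In the iPSCs 3 of 13 rose relative to day 0 (median 0.42, against 70.6% of all tested genes passing, 38.5% as higher and 32.1% as lower), and 10 fell relative to day 7 (median -1.17, against 72.5% passing, 38.2% as higher and 34.3% as lower). The day 2 count was 1 without any 1 of its 4 libraries. The iPSC count relative to day 0 was 10 without iPSC replicate 2, 0 without iPSC replicate 1 or day 0 replicate 1, and 1 without day 0 replicate 2. It was also 0 under TPM, under scaling on the nuclear genes and with a pseudocount of 0.1. A rise in the 4-factor iPSCs is therefore carried by few members and depends on single libraries.

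The clearest member of this arm was mt-Nd3. It was at 201.6 and 245 FPKM on day 0, 526 and 469 on day 2, 728 and 733 on day 4, 695 and 617 on day 7 and 304 and 279 in the iPSCs. All intermediates lay above both end points. It rose by 1.71 ± 0.15 (adjusted p = 5.3e-05) to day 4 and 1.56 ± 0.15 (adjusted p = 1.3e-04) to day 7, and fell by 1.17 ± 0.15 (adjusted p = 1.1e-04) from day 7 to the iPSCs. Of the 13, mt-Atp8 had the largest day 7 change, from 922 and 940.3 to 4209 and 3184 (1.97 ± 0.35, adjusted p = 0.0027), and was at 2069.8 and 938 in the iPSCs. One iPSC library of this gene lay within the day 0 range and the other above it. For mt-Nd2 the values were 884 and 954 on day 0, 3502 and 2776 on day 7 and 1580.2 and 879.7 in the iPSCs, with one iPSC library just below day 0. It rose by 1.76 ± 0.28 (adjusted p = 0.0018) and then fell by 1.40 ± 0.28 (adjusted p = 0.0017). In contrast mt-Co1 was at 4449 and 4585 on day 0, 11334 and 10700.1 on day 7 and 10865 and 6798 in the iPSCs. Both iPSC libraries were above day 0 (0.93 ± 0.34, adjusted p = 0.036), and the change from day 7 was -0.36 ± 0.34 and did not pass.

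Day 4 of the 4-factor arm rested on unlike libraries. From replicate 1 to replicate 2, mt-Cytb went from 3606 to 1177 FPKM and mt-Nd1 from 3085 to 1447, while mt-Nd6 went from 1898 to 2463. The median log2 ratio of replicate 2 to replicate 1 was -0.59 for the mitochondrial members and 0.32 for the nuclear members. Between these libraries 4.55% of expressed genes differed over 2-fold, against 0.264% to 0.583% on days 0, 2 and 7. The fitted day 4 change of mt-Cytb was 0.80 (adjusted p = 0.050) without replicate 2 and -0.81 (adjusted p = 0.034) without replicate 1, and with both it came to -0.00 ± 0.46. Without replicate 2 the mitochondrial counts of the other comparisons became 10 on day 2, 12 on day 7, and 4 higher in the iPSCs relative to day 0.

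Nuclear members rose in the 4-factor arm on day 4 and in the iPSCs. On day 2 only Cycs passed, rising by 0.52 ± 0.14 (adjusted p = 0.037). On day 4, 11 of 24 rose and none fell (median 0.43; 7 without day 0 replicate 1), and on day 7 none rose while Cycs and Cyc1 fell (median 0.08). In the iPSCs 17 of 24 rose relative to day 0 (median 0.72) and 14 relative to day 7 (median 0.60), and none fell in either. The 11 of 24 passing on day 4 is near the 47% of all tested genes, of which 26% were higher, and 17 of 24 in the iPSCs relative to day 0 is near 70.6%, of which 38.5% were higher. Relative to day 7, 14 of 24 passing is a smaller share than the 72.5% of all tested genes, of which 38.2% were higher. The day 4 rises included the complex IV subunit Cox7a2 at 1.30 ± 0.24 (adjusted p = 0.0025) and the complex II anchor Sdhd at 1.20 ± 0.27 (adjusted p = 0.0059), in both of which day 4 replicate 2 was the higher library (113 and 199 FPKM and 73.8 and 133 FPKM). Uqcrc2 rose by 1.06 ± 0.14 (adjusted p = 5.2e-04), from 54.9 and 56.3 on day 0 to 101 and 135.5. Both day 4 libraries of Uqcrc2 exceeded every day 0 library. Without day 4 replicate 2 the fitted day 4 changes were smaller, at 0.89 for Cox7a2, 0.78 for Sdhd and 0.84 for Uqcrc2.

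The fall and recovery of Cycs and Cyc1 was seen in this arm too. Cycs was at 18.2 and 19.7 FPKM on day 0, 27.4 and 27.9 on day 2, 24.0 and 24.1 on day 4, 9.65 and 12.056 on day 7 and 27.3 and 32.5 in the iPSCs. Day 7 was lowest, without overlap. It fell from day 0 to day 7 by 0.76 ± 0.14 (adjusted p = 0.0031) and rose to the iPSCs by 1.39 ± 0.14 (adjusted p = 1.6e-05). Cyc1 was at 53.0 and 55.3 on day 0, 40.3 and 36.4 on day 7 and 117 and 159 in the iPSCs, and changed by -0.49 ± 0.16 (adjusted p = 0.043) and then 1.81 ± 0.16 (adjusted p = 7.7e-06). The day 7 decrease of Cyc1 passed by a small margin, and 1 of the 24 nuclear members passed on day 7 without any 1 of the 4 libraries. Cox5a was at 89.8 and 95.7 on day 0, 60.7 and 66.2 on day 7 and 204 and 296 in the iPSCs, with a first step of -0.54 ± 0.21 (adjusted p = 0.077) that did not pass and a second of 1.94 ± 0.21 (adjusted p = 3.1e-05). Both iPSC libraries stood above all day 0 and day 7 libraries for Cyc1 and Cox5a.

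Relative to day 0, 14 of 24 nuclear members rose in the iPSCs of both arms: Ndufa9, Ndufb5, Ndufb8, Ndufs1, Ndufv1 and Ndufv2 of complex I, Sdhc and Sdhd of complex II, Uqcrc1, Uqcrc2, Uqcrfs1 and Cyc1 of complex III, and Cox5a and Cox7a2 of complex IV. These 14 are 14 of the 17 that rose in the 4-factor arm and 14 of the 18 that rose in the CF1 arm, and this overlap was not tested. Of the 14121 genes tested in both arms 33.2% rose in both, with 38.5% of all tested genes higher in the 4-factor arm and 41.9% in the CF1 arm. By complex, the 4-factor iPSCs had higher levels of 6 of 8 nuclear members of complex I, 3 of 4 of complex II, 5 of 5 of complex III and 2 of 6 of complex IV. In the CF1 iPSCs these counts were 7, 3, 4 and 4, with 1 lower in complex IV. Under TPM 8 of 24 rose and 5 fell in the CF1 iPSCs, and 14 rose in the 4-factor iPSCs. From the last intermediate to the iPSCs 14 members rose in both arms as well, Cycs, Sdha and Sdhb among them, against 34.2% of the genes tested in both. Rises from day 0 in the CF1 arm turned their sign under TPM for Sdhd (from 0.21 to -0.060) and Cox6b1 (from 0.22 to -0.052). TPM, under which more genes were tested, moved the median of all genes in that comparison from 0.05 to -0.11.

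The changes of some members differed between the arms. In each contrast the change from day 0 in the CF1 arm was set against that in the 4-factor arm, and method, mouse stock and table cannot be told apart. For iPSCs against day 0, 30.4% of all tested genes differed, 15.2% with the higher and 15.3% with the lower change in the CF1 arm. Of the 37 members, 6 mitochondrial genes differed, all with the larger rise in the CF1 arm, led by mt-Atp8 (difference 1.62 ± 0.43, adjusted p = 0.011), mt-Nd3 (1.39 ± 0.21, adjusted p = 2.2e-04) and mt-Atp6 (1.24 ± 0.33, adjusted p = 0.011). Of the nuclear members 3 differed, Sdha, Uqcrb and Cycs, all with the larger rise in the 4-factor arm. Without iPSC replicate 1 of the 4-factor arm 11 mitochondrial and 10 nuclear members differed. The mitochondrial count was 1 without day 0 replicate 1 of the CF1 arm, 2 without its iPSC replicate 1 and 3 without day 0 replicate 2 of the 4-factor arm.

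For day 4 against day 0, 52.1% of all tested genes differed between the arms, 25.8% with the higher and 26.3% with the lower change in the CF1 arm. So did 14 members: 12 of 24 nuclear members, all with the lower change in the CF1 arm, and mt-Nd1 and mt-Cytb, with the higher. The nuclear difference was largest for Uqcrc2 (-1.23 ± 0.15, adjusted p = 1.2e-05), which changed by -0.17 ± 0.06 in the CF1 arm and 1.06 ± 0.14 in the 4-factor arm. Complex III held 5 of the 12 (Uqcrc1, Uqcrc2, Uqcrfs1, Uqcrb and Cyc1), and only Cox7a2 came from complex IV. The nuclear split became 2 higher and 9 lower under scaling on the nuclear genes and 1 and 11 under TPM. Without day 4 replicate 1 of the 4-factor arm 19 nuclear members differed. No mitochondrial member differed without any 1 of 5 libraries, day 4 replicate 2 of the 4-factor arm among them; the other 4 were its day 0 replicate 2, day 0 replicate 1 of the CF1 arm and both CF1 day 4 libraries.

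Genes that serve the chain were read from lists of mitochondrial ribosomal proteins, factors of mitochondrial DNA (mtDNA) expression, assembly factors and ATP synthase subunits. The mitochondrial ribosome makes the 13 mitochondrial proteins, and 80 of its 83 listed genes were tested in the CF1 table. By day 12 none of the 80 rose and 61 fell (median -0.66), while the mitochondrial mRNAs they translate were higher. Of all tested genes 29.2% were higher and 38.6% lower. From day 12 to the iPSCs 63 rose and 4 fell (median 1.11), against 46% and 37.2% of all tested genes. Mrpl3 fell by 1.36 ± 0.10 (adjusted p = 2.2e-06) to day 12, from 18.7 and 17.2 FPKM to 6.19 and 6.57, without overlap. Mrpl21 (-1.53), Mrps6 (-1.43) and Mrpl51 (-1.42) also fell by more than 2-fold. Mrpl15 rose by 2.36 ± 0.10 (adjusted p = 2.4e-08) from day 12 to the iPSCs, from 4.07 and 4.96 to 26.1 and 28.5. Relative to day 0, 41 ribosomal genes were higher and 14 lower in the CF1 iPSCs, but under TPM 29 were higher and 25 lower. In the 4-factor arm 32 rose and 2 fell on day 4, against 26% and 21.1% of all tested genes. That count was 19 and 4 under TPM, and 19 and none without day 0 replicate 1. On day 7, 7 rose and 12 fell, against 18.4% and 16.2% of all tested genes, or 3 and 18 under TPM. Without any 1 of the 4 libraries of days 0 and 7 only 1 to 3 rose and 2 to 3 fell. In the 4-factor iPSCs 53 rose and 1 fell relative to day 0 (median 0.81), against 38.5% and 32.1% of all tested genes.

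Of the 35 genes of mtDNA expression, 1 rose and 22 fell by day 12 in the CF1 arm (median -0.42), against 29.2% of all tested genes higher and 38.6% lower. From there to the iPSCs 32 rose and none fell (median 1.49), against 46% and 37.2%. In the 4-factor arm 4 rose and 8 fell by day 7, against 18.4% and 16.2% of all tested genes. That count was 1 and 13 under TPM, 1 and 4 without either day 0 library or without day 7 replicate 1, and 0 and 7 without day 7 replicate 2. From day 7 to the iPSCs 28 rose and none fell (median 1.11), against 38.2% and 34.3% of all tested genes. Tefm, the elongation factor of mitochondrial transcription, was at 7.29 and 6.14 FPKM on day 0, 1.82 and 3.17 on day 12 and 25.1 and 21.6 in the CF1 iPSCs, and changed by -1.17 ± 0.19 (adjusted p = 4.7e-04) and then 2.82 ± 0.19 (adjusted p = 6.7e-07). The 3 groups did not overlap. The RNA-processing enzyme Pnpt1 changed by -0.89 ± 0.08 and 2.51 ± 0.08 at the same steps. From day 7 to the 4-factor iPSCs the mtDNA helicase Twnk rose by 2.1978 and Lrpprc, which stabilizes mitochondrial mRNAs, by 2.13 ± 0.16 (adjusted p = 2.2e-06). On day 12 of the CF1 arm, when all 13 mitochondrial mRNAs were higher than in the MEFs, most listed genes for their transcription, processing and translation that passed were lower.

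The 2 mitochondrial rRNAs moved with the mRNAs in intermediates and apart from several of them in iPSCs. In the CF1 arm mt-Rnr1 was at 97.1 and 100.1 FPKM on day 0, 429.6 and 422 on day 4, 619.6 and 678 on day 8, 531 and 559 on day 12 and 194 and 219 in the iPSCs. It rose by 2.45 to day 12 and fell by 1.40 to the iPSCs, and mt-Rnr2 rose by 2.57 and fell by 1.05. Over the second step mt-Co1, mt-Co2 and mt-Atp8 rose, as given above. Levels of rRNA depend on how it was handled in making the libraries, a step on which the sources used here are silent.

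**Figure D4:**
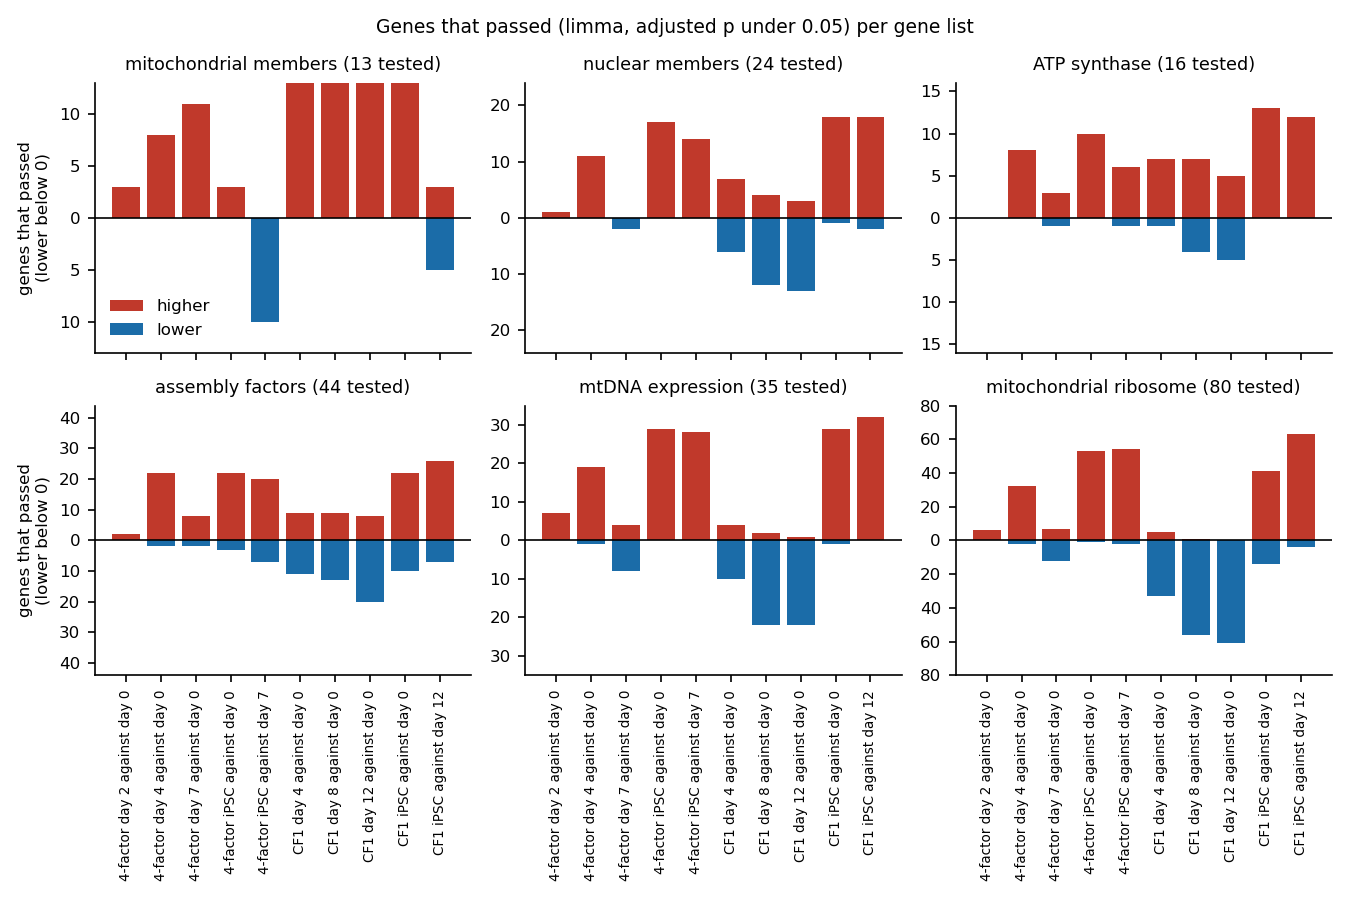
Number of genes that passed (adjusted p under 0.05, limma) as higher (upward bars) or lower (downward bars) in 10 time-course comparisons, for the 13 mitochondrial members, the 24 nuclear members, 16 ATP synthase genes, 44 assembly factors, 35 genes of mtDNA expression and 80 mitochondrial ribosomal genes. By CF1 day 12 all 13 mitochondrial members are higher while 61 ribosomal genes are lower, and from day 12 to the iPSCs 63 ribosomal genes are higher.

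Of 16 ATP synthase genes of the nucleus, 5 rose and 5 fell by day 12 in the CF1 arm, a passing share near the 67.8% of all tested genes. From day 12 to the iPSCs 12 rose and none fell (median 0.62; 9 and 1 under TPM). Over that step 83.2% of all tested genes passed, 46% as higher and 37.2% as lower, so a smaller share of this list passed. Atp5b, the catalytic beta subunit, was at 493 and 471 FPKM on day 0, 262.4 and 256 on day 12 and 764 and 818 in the iPSCs, and changed by -0.89 ± 0.06 (adjusted p = 1.2e-06) and then 1.60 ± 0.06 (adjusted p = 9.8e-09). Its mitochondrial partners mt-Atp6 and mt-Atp8 were higher on day 12 than on day 0. Of 44 assembly factors 8 rose and 20 fell by day 12 (3 and 21 under TPM). From there to the iPSCs 26 rose and 7 fell (23 and 10 under TPM), a smaller passing share than the 83.2% of all tested genes. The 28 of 44 passing by day 12 is near the 67.8% of all tested genes, of which 38.6% were lower. Cox10, needed to make haem A of complex IV, fell by 1.82 ± 0.13 (adjusted p = 2.2e-06), and Ndufaf4, an assembly factor of complex I, by 1.51 ± 0.14 (adjusted p = 1.4e-05). Of 28 further nuclear subunits of complex I, 8 rose and 10 fell by day 12. From day 12 to the iPSCs 18 rose and 4 fell, against 46% of all tested genes higher and 37.2% lower. The 18 of 28 passing by day 12 is near the 67.8% of all tested genes, and the split was 4 higher and 12 lower under TPM and 10 and 7 under scaling on the nuclear genes.

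Some isoforms of complex IV subunits changed more from day 0 than any of the 37 members. Ndufa4l2, a paralog of a complex IV subunit known as a hypoxia target, was at 0.55 and 0.85 FPKM on day 0, 2.15 and 2.67 on day 2, 44.3 and 20.3 on day 4, 98.0 and 118 on day 7 and 1.69 and 3.41 in the 4-factor iPSCs. In the CF1 arm it was at 0.18 and 0.45 on day 0, 8.36 and 8.59 on day 4, 97.7 and 93.4 on day 8, 11.8 and 9.67 on day 12 and 4.24 and 4.92 in the iPSCs. It peaked on day 7 in one arm and day 8 in the other, rising by 6.00 ± 0.35 (adjusted p = 7.1e-06) and 6.21 ± 0.12 (adjusted p = 2.2e-09). Cox4i2, the isoform of Cox4i1 known from lung and low oxygen, rose by 3.78 ± 0.17 (adjusted p = 1.9e-06) and 4.19 ± 0.12 (adjusted p = 1.4e-08) at the same times. Cox6b2, an isoform known from testis, rose by 2.24 and 4.73. Cyct, the testis form of cytochrome c, was at 14.7 and 27.8 FPKM in the 4-factor iPSCs and 9.49 and 11.4 in the CF1 iPSCs, and was listed at 0 in both day 12 CF1 libraries.

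Among regulators, Nrf1, whose motif was sought above, was at 15.951 and 16.005 FPKM on day 0, 4.52 and 4.83 on day 8, 5.60 and 5.50 on day 12 and 20.6 and 26.0 in the CF1 iPSCs. Intermediates were lowest, without overlap, and it fell by 1.37 ± 0.10 (adjusted p = 3.1e-06) to day 12 and rose by 1.88 ± 0.10 (adjusted p = 1.7e-07) to the iPSCs. Of the 4 members with its motif, Cycs and Uqcrc1 fell by day 12, while Cox6a1 (0.24 ± 0.11) and Sdhb (-0.17 ± 0.11) did not pass. Over the next step Cycs, Uqcrc1 and Sdhb rose and Cox6a1 fell. This fall of Cox6a1 lay just inside the threshold, and whether the motif goes with a direction of change was not tested. Gabpa, a subunit of the ETS-motif factor GABP, rose by 1.70 from day 12 to the iPSCs, and Myc fell by 4.57 ± 0.11 (adjusted p = 4.5e-09) from day 0 to day 12 in the CF1 arm. Nrf1, Gabpa and Myc are from a list of 14 regulators, and the others are not described here. Of all tested genes 67.8% passed from day 0 to day 12 and 83.2% from day 12 to the iPSCs.

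In the removal experiment no mitochondrial member passed in any of the 4 comparisons with CT, although the fitted medians were 0.98 for -CHIR, 1.38 for -PD, 1.23 for -VC and 1.41 for -WS. Of all tested genes 9.39%, 14.4%, 33.9% and 9.26% passed. At an unadjusted p under 0.05, limma gave 0, 13, 5 and 12 of the 13 as higher. These values turn on CT replicate 2. Without it the medians were -0.16, 0.26, 0.10 and 0.24 and no member passed, and without CT replicate 1 they were 2.14, 2.55, 2.41 and 2.59 and all 13 passed in each. The size of the fitted difference from CT thus depended on which CT library was used, and for -CHIR its sign did too.

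CT replicate 2 had less of every mitochondrial mRNA than the other 9 removal libraries. The 13 members held 6.52% of FPKM in CT replicate 1, 2.03% in replicate 2 and 5.77% to 8.12% in the other 8. The ratio of replicate 2 to replicate 1 ran from 0.0906 for mt-Atp8 (1120 to 101.5 FPKM) to 0.467 for mt-Co2 (2122 to 991), with a median of 0.196. It was 0.343 for mt-Co1 and 0.459 for mt-Nd6, the minus-strand gene. The rRNAs were less reduced, with ratios of 0.720 for mt-Rnr1 and 0.804 for mt-Rnr2. Among 17 mitochondrial tRNAs of at least 10 FPKM the ratio ran from 0.271 to 1.37 with a median of 0.465. The reduction was thus unequal along the genome. Of the 24 nuclear members, replicate 2 was below the other 9 libraries in 6, within them in 14 and above them in 4. Cox7a2 was at 28.2 FPKM against 71.7 in replicate 1, and fibroblast markers summed highest of all 30 libraries in this one. The share of genes over 2-fold apart between the CT libraries was 1.18%, against 0.250% to 0.380% between the libraries of each other removal group. What set this library apart was not tested.

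**Figure D5:**
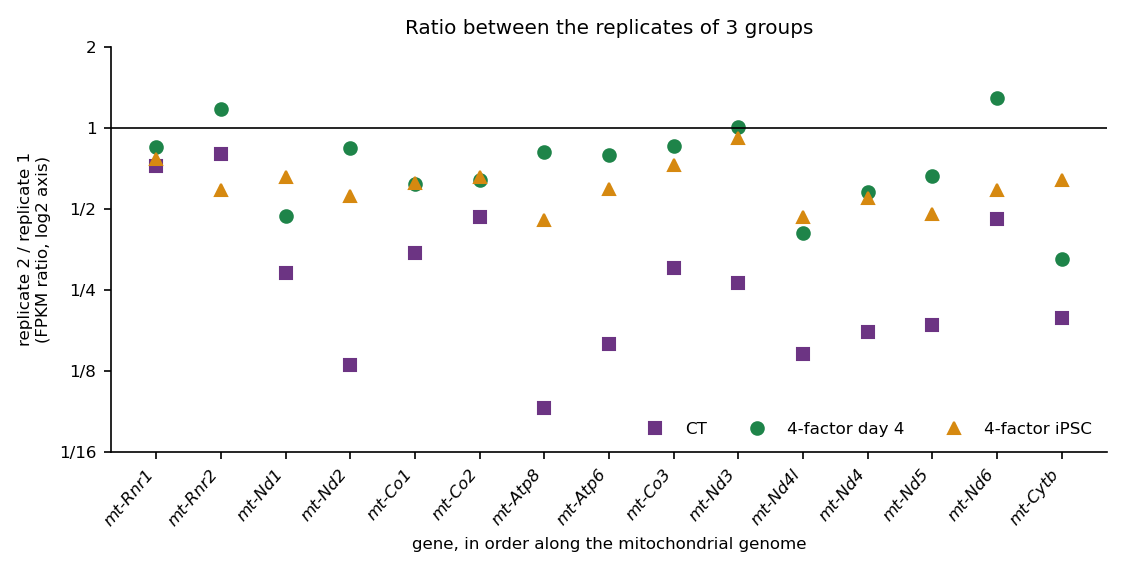
Ratio of replicate 2 to replicate 1 (FPKM, log2 axis) for the 2 rRNAs and 13 coding genes of the mitochondrial genome in genome order, in CT (squares), day 4 of the 4-factor arm (circles) and the 4-factor iPSCs (triangles). In CT the ratio is 0.720 and 0.804 for the rRNAs and 0.0906 to 0.467 for the coding genes, and in day 4 of the 4-factor arm mt-Cytb is lowest while mt-Nd6 is above 1.

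Few nuclear members passed in the removal experiment, and all that did were higher than CT. None of 24 passed for -CHIR (8 lower and 0 higher at an unadjusted p under 0.05), 2 for -PD, 4 for -VC and 2 for -WS, against 5.68%, 10.3%, 24.3% and 5.4% of all tested genes as higher and 3.71%, 4.15%, 9.57% and 3.87% as lower. These shares are near or below the background for -PD and -VC. Cycs was at 9.66 and 6.58 FPKM in CT, 8.35 and 9.03 in -CHIR, 11.5 and 11.1 in -PD, 12.3 and 11.9 in -VC and 14.3 and 12.3 in -WS. It was higher than both CT libraries in every -PD, -VC and -WS library, and passed for -VC (0.54 ± 0.14, adjusted p = 0.020) and -WS (0.67 ± 0.14, adjusted p = 0.021). Cox5a passed for the same removals, at 0.32 ± 0.09 and 0.34 ± 0.09. Ndufv2 passed for -PD (0.37 ± 0.10) and -VC (0.34 ± 0.10), Uqcrc2 for -PD (0.32 ± 0.08) and Sdhb for -VC (0.34 ± 0.09). In CT replicate 2, Cycs (6.58 FPKM) and Uqcrc2 (33.5 FPKM) lay below the other 9 removal libraries, whose lowest values were 8.35 and 35.2. The fitted differences of Cycs and Uqcrc2 thus rest in part on that library. Cox5a, Ndufv2 and Sdhb of CT replicate 2 lay within the other 9. Under TPM the counts were 0 for -PD, 1 for -VC and 1 for -WS. Without CT replicate 1 they were 9, 10 and 9, with 10 for -CHIR, and without CT replicate 2 that for -VC was 2. Without either library of the removal itself they were 0. Ndufa4l2, named here after its values were seen, separated 2 of the removals. It was at 4.33 and 4.85 FPKM in CT, 1.10 and 0.79 in -CHIR and 15.9 and 15.3 in -PD, and changed by -1.53 ± 0.12 (adjusted p = 1.6e-04) and 1.57 ± 0.12 (adjusted p = 1.1e-04). No library of these 3 groups overlapped another group.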

How the data were processed

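RNA was extracted with a total RNA kit and sequenced with 150-base reads, per the labels' protocols. Reads were trimmed with fastp 0.20.1, aligned to mm10 with HISAT2 2.2.1 and quantified with StringTie 2.0, per the submitters' processing notes. The annotation, strand setting and rRNA handling are not given in the sources used here. The authors deposited FPKM values for 55401 gene identifiers in 3 tables of 10 libraries, so tests within a table set no table against another. GENCODE M21 named 99.5% of the identifiers.

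Each table was tested in limma 3.58.1 (R 4.3.3) on log2(FPKM + 1), a scale that understates changes of low genes, with 1 coefficient per group, a mean-variance trend and Benjamini-Hochberg adjustment over all genes that reached 1 FPKM in 2 or more libraries. These were 14761 genes in the 4-factor table, 15442 in the CF1 table and 13290 in the removal table. The differences between arms were fitted on both time-course tables together (16205 genes), which were quantified separately. Genes passed at an adjusted p under 0.05, and each value given after ± is a standard error unless called SD. The fit was tested on simulated data. Members and lists were chosen with earlier results of these data known. In each comparison up to 5 members per genome and 4 genes per list were named, by the largest change among those that passed without overlap of libraries and, for lists, a mean of 5 FPKM or more in the group where they were higher. The alternatives were a pseudocount of 0.1, no filter, TPM, scaling on the nuclear genes, a replicate block and leaving out each library. TPM rescales each library's FPKM to a common sum. The filter and the pseudocount were applied after either rescaling, so more genes were tested. Under TPM these were 17285 in the 4-factor table, against 14761 in the main fit.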

Additional observations from a re-analysis of the deposited data

Results flagged for a closer look

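The members below changed differently from day 0 in the CF1 and 4-factor arms, by limma's test of the difference itself (CF1 change minus 4-factor change, log2 scale). Method, mouse stock and table cannot be told apart in this difference.

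For iPSCs against day 0 the difference was 1.11 ± 0.31 (adjusted p = 0.015) for mt-Nd2, 1.39 ± 0.21 (adjusted p = 2.2e-04) for mt-Nd3, 1.00 ± 0.32 (adjusted p = 0.031) for mt-Co2, 0.77 ± 0.24 (adjusted p = 0.023) for mt-Co3, 1.24 ± 0.33 (adjusted p = 0.011) for mt-Atp6 and 1.62 ± 0.43 (adjusted p = 0.011) for mt-Atp8. These are subunits of complexes I, IV and V. For nuclear members it was -0.56 ± 0.15 (adjusted p = 0.0097) for Sdha, -0.73 ± 0.26 (adjusted p = 0.048) for Uqcrb and -0.74 ± 0.16 (adjusted p = 0.0039) for Cycs.

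For day 4 against day 0 the difference was 1.14 ± 0.39 (adjusted p = 0.023) for mt-Nd1 and 1.46 ± 0.51 (adjusted p = 0.025) for mt-Cytb, the members lowest relative to replicate 1 in day 4 replicate 2 of the 4-factor arm together with mt-Nd4l. In complex I it was -1.07 ± 0.17 (adjusted p = 1.1e-04) for Ndufa9, -0.49 ± 0.15 (adjusted p = 0.014) for Ndufs1 and -0.61 ± 0.13 (adjusted p = 0.0010) for Ndufv2. In complex II it was -1.03 ± 0.23 (adjusted p = 0.0018) for Sdhb and -1.16 ± 0.30 (adjusted p = 0.0050) for Sdhd. All 5 nuclear members of complex III differed, Uqcrc1 by -0.91 ± 0.16 (adjusted p = 3.2e-04), Uqcrc2 by -1.23 ± 0.15 (adjusted p = 1.2e-05), Uqcrfs1 by -0.78 ± 0.15 (adjusted p = 4.9e-04), Uqcrb by -0.77 ± 0.26 (adjusted p = 0.024) and Cyc1 by -0.54 ± 0.17 (adjusted p = 0.017). Cycs differed by -0.80 ± 0.16 (adjusted p = 9.8e-04) and Cox7a2 by -1.01 ± 0.27 (adjusted p = 0.0060).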

How the results depend on the processing

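Of 5772 recomputed values of single members over 592 results, 5261 kept their side of the threshold, 300 lost the call, 208 gained it and 3 reversed. A value counted as reversed only if its sign turned and it or the original value passed. The 5261 therefore include values that turned sign without passing. The reversed values were mt-Cytb on day 4 of the 4-factor arm (0.80 without day 4 replicate 2, against -0.81 without replicate 1) and, in CF1 iPSCs against day 0 under TPM, Sdhd (-0.060) and Cox6b1 (-0.052). The cause was not tested.

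Counts of members that passed moved as follows, with 4F for the 4-factor arm. A pseudocount of 0.1 gave 0 mitochondrial members in 4F iPSCs against day 0. Without a filter the mitochondrial counts were 1 on 4F day 2, 0 in 4F iPSCs against day 0, 6 in 4F iPSCs against day 7, 5 in CF1 iPSCs against day 12 and 0 for the day 4 difference between arms, and the nuclear counts 0 on 4F day 2, 1 on 4F day 7 and 0 for -PD, -VC and -WS. Under TPM the nuclear counts were 0 on 4F day 2, 4 on 4F day 7, 0 for -PD, 1 for -VC and 1 for -WS, and the mitochondrial count in 4F iPSCs against day 0 was 0. Scaling on the nuclear genes gave 0 there, 0 for -PD, 1 for -VC and 1 for -WS. Medians in place of means moved the genome balance to 1.10 on 4F day 2, 1.87 on CF1 day 8, 2.19 on CF1 day 12 and -1.18 in CF1 iPSCs against day 12. Under TPM, where more genes were tested, a smaller share of the passing genes was higher. On 4F days 2, 4 and 7 it was 40.8%, 38.2% and 38.4%, against 58%, 55.2% and 53.2% in the main fit. The share likewise went from 71.2% to 40.6% for -PD, from 71.7% to 42% for -VC and from 58.2% to 33.2% for -WS.

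Deviations of same-numbered replicates correlated at -0.21 to 0.25 in the 4F arm, where 4 of 10 pairs of groups exceeded 0.1. The range was -0.11 to 0.07 in the CF1 arm and -0.06 to 0.05 in the removal experiment. Each value rests on a single difference between libraries in each group, so pairing by number was neither shown nor excluded. With a replicate block 5 mitochondrial members passed on 4F day 2 and 1 nuclear member for -PD.

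Leaving out 1 library at a time gave these ranges (mitochondrial, then nuclear): 4F day 2 1 to 1 and 0 to 0, day 4 6 to 12 and 7 to 13, day 7 9 to 9 and 1 to 1, iPSCs against day 0 0 to 10 and 12 to 19, iPSCs against day 7 7 to 10 and 10 to 16; CF1 day 4 13 to 13 and 8 to 12, day 8 13 and 15 to 16, day 12 13 and 15 to 16, iPSCs against day 0 13 and 15 to 19, iPSCs against day 12 5 to 8 and 18 to 20; -CHIR 0 to 13 and 0 to 10, -PD 0 to 13 and 0 to 9, -VC 0 to 13 and 0 to 10, -WS 0 to 13 and 0 to 9. The differences between arms gave 1 to 11 and 2 to 10 for iPSCs and 0 to 5 and 9 to 19 for day 4. Without day 4 replicate 2 of the 4F arm, chosen after seeing the data, the counts were 10 and 4 on day 2, 12 and 5 on day 7, 4 and 20 in iPSCs against day 0, and 11 and 15 against day 7. Read counts were not recovered, so what depth limits was not measured.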
